A study of Mus musculus with 12 samples.

Results

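The genes described here encode the plasma proteins of blood clotting and complement together with their closest cellular partners: clotting factors, fibrinogen, anticoagulants, the plasminogen system, the classical, lectin and alternative complement proteins, the terminal components, regulators and the receptors for the complement peptides C3a and C5a. They were chosen by name as a list of 54 genes, with no threshold on measured values. All 54 were present in the count table and all 54 passed the filter on low counts, out of 22581 genes that passed it and 24187 genes in the table.

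RNA was sequenced from whole mouse liver in 3 groups of C57BL/6J mice. Control mice (n = 3) were untreated, APAP-vehicle mice (n = 5) received 350 mg/kg acetaminophen (APAP, paracetamol) and then phosphate-buffered saline (PBS), and APAP-hAAM mice (n = 4) received the same APAP dose and then hAAM. These are human alternatively activated macrophages, grown from blood monocytes with CSF1, polarised with IL-4 and IL-13 and cryopreserved. Per the study's methods the mice were 10 to 12 weeks old, were fasted for 12 h before APAP and were given cells 16 h after it; these methods name the substrain of the injury model as C57BL6/JOlaHsd and, beside the labelled dose of 350 mg/kg, also a dose of 500 mg/kg. The sample labels give neither the number of cells nor the time at which the livers were taken, and they describe the controls only as untreated, so fasting and saline injection cannot be told apart from APAP in the comparisons with control. Each library was made from a small piece of 1 frozen liver, and the protocol names 14 libraries where 12 are analysed here. Reads were aligned to the mouse genome only, and RNA of the injected human cells was not analysed here.

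Total counts ranged from 47391650 in hAAM 2 to 74056505 in control 2. A pair of libraries from different groups, hAAM 4 and vehicle 3, were nearly identical: the spread between them was 1.19 times what counting noise alone gives, against 2.36 to 4.97 times in the other 35 pairs of APAP livers. Over the 54 genes their median absolute log2 difference was 0.03, against 0.09 to 0.81 in those other pairs. Whether both came from 1 liver cannot be told from the labels; if they did, 1 of these 2 groups would hold 1 liver fewer than its label gives. A further liver, hAAM 3, stood apart from its group across most of these genes. The main counts of members are given with and without these libraries. The hepatocyte markers Alb, Ttr, Apoa1, Apob, Hnf4a, Cps1 and Ass1 were detected in every liver, with summed levels of 66885 to 98197 CPM (counts scaled to a common library size) in control, 70828 to 102807 in APAP-vehicle and 73142 to 108110 in APAP-hAAM livers.

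Clotting and complement are both cascades of proteases that circulate as inactive precursors. In clotting, tissue factor exposed to blood starts a chain of activations that ends when thrombin cuts fibrinogen into fibrin, and plasmin later dissolves it. In complement, antibody, microbial sugars or spontaneous activation lead to cleavage of C3 and then to assembly of a pore from the terminal components. The hepatocyte makes most of these proteins, while the C1q subunits, properdin and the receptors come mainly from myeloid cells, and factor VIII, von Willebrand factor and thrombomodulin from endothelium.

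The 3 fibrinogen genes lie side by side on chromosome 3 and had the most abundant transcripts of the list together with C3, so the sequences before their starts are shown, beside that of F3, the tissue factor gene, which lies on the same chromosome and moved the other way. Each run reads 5′ to 3′ on the gene's strand in the mouse build GRCm38.p6 of RefSeq. For Fgb (chr3:83049864-83050113, minus strand), Fgg (chr3:83007474-83007723, plus strand) and F3 (chr3:121723287-121723536, plus strand) the 250 bases before the start are given. For Fga, whose 250 bases reach into another annotated start of the gene, only bases 55 to 26 before the RefSeq start are given (chr3:83026098-83026127, plus strand). Capitals mark matches on either strand to 3 motifs. These are GTTAAT, an HNF1 core (ATTAAC on the other strand), CTGGGAA, an IL-6 response element, and TGANTCA, a loose AP-1 pattern. Its N is any base, so it also takes TGAATCA, and as a pattern it reads the same on both strands.
Fga: ccaagggtgatgATTAACctcctgccggtt
Fgb: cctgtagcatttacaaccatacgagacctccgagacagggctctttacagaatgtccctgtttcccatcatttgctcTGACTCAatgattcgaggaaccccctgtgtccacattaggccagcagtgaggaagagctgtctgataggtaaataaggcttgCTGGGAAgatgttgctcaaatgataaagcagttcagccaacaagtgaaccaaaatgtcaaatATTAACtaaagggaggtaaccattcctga
Fgg: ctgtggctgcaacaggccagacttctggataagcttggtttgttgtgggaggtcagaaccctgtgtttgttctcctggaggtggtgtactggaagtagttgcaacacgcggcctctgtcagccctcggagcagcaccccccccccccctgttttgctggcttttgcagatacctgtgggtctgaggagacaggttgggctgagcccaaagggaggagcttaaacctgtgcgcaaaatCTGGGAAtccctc
F3: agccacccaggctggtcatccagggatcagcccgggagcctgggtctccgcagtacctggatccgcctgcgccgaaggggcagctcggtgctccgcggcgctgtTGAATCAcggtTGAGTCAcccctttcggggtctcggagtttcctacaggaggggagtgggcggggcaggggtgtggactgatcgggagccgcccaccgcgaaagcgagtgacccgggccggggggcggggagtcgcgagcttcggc

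The HNF1 core stood 43 to 38 bases before the start of Fga and 29 to 24 bases before that of Fgb. Fgb and Fgg held the IL-6 response element at 91 to 85 and 13 to 7 bases, and Fgb also held an AP-1 site at 173 to 167 bases. F3 held 2 matches to the AP-1 pattern, TGAATCA at 146 to 140 and TGAGTCA at 135 to 129 bases. RefSeq promoters were matched by symbol for 40 of the 54 genes. Of these 40, 9 held the HNF1 core (22.5%, against 7.49% of 27025 genes with a promoter), namely F13b, Fga, Fgb, Proz, C1ra, Cfp, C8a, C8b and C4bp. The IL-6 response element was held by 6 of 40 (15%, against 10.4%), namely F9, Fgb, Fgg, Tfpi, C1ra and Masp2. The AP-1 pattern was held by 6 of 40 (15%, against 7.82%), namely F2, F3, Fgb, Plaur, C8g and C3ar1. An HNF4 site spelled CAAAGTCCA was found in 0 of 40 and in 0.451% of all promoters. Such matches are letters in a window and describe no binding.

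In livers of mice given APAP and vehicle, most liver-made members of both cascades were lower than in control livers. By edgeR's quasi-likelihood test with Benjamini-Hochberg adjustment over all genes tested, 29 of 54 fell, where 14.8% of all genes fell, and 6 of 54 rose, a share below the 15.0% of all genes that rose. The 6 were F3, Plat, Plau, Plaur, C5ar1 and C3ar1. The 35 calls compare with 29.8% of all genes called in either direction, and DESeq2 called these 35 and 3 more (Proc, Pros1 and Cfi, all lower), 38 in all, where it called 34.0% of all genes. Over the 54 genes the median log2 fold change was -0.56, against 0.01 over all genes. The value was positive for 14 members, where it was positive for 51.0% of all genes. All 5 vehicle livers lay below all 3 control livers in 32 members and above them in 7, where this was so for 17.3% and 17.5% of all genes. In bulk liver, fewer cells of a type and less RNA per cell cannot be told apart. Leaving out each of the 12 livers in turn kept 27 of the 35 calls in every fit, and the 8 lost in at least 1 fit were those of Serpinc1, Proz, Plg, Serpinf2, Masp2, C3, C8g and C5ar1. Without hAAM 3, which enters this comparison through the shared estimate of spread, 32 fell (15.8% of all genes) and 6 rose (16.1%), and without the nearly identical pair 30 fell (14.0%) and 6 rose (16%).

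After APAP and hAAM the calls against control were fewer. Of 54 members 17 fell, where 9.96% of all genes fell, and 6 rose, where 10.7% of all genes rose, with a median log2 fold change of -0.34 against 0.02 over all genes. The 23 calls compare with 20.7% of all genes, and DESeq2 called these 23 and 5 more (F2, F10, Mbl2, C3 and C8g, all lower), 28 in all, where it called 25.8% of all genes. The value was positive for 14 members, where it was positive for 51.5% of all genes. All hAAM livers lay below all control livers in 19 members and above them in 4, where this was so for 14.2% and 14.3% of all genes. Both comparisons use the same 3 control livers, so their values are set side by side here and not counted as separate evidence. The number that fell rested on single livers. It was 27 without hAAM 3, where 11.3% of all genes fell, 10 without hAAM 2 (6.44%), 11 without control 2 (7.72%) and 10 without control 3 (5.66%), and 12 without the nearly identical pair (8.49%). The 10 members added without hAAM 3 were F2, F7, F10, Serpinc1, Plg, Serpinf2, Masp2, Mbl2, C3 and C8g. The number that rose was 6 without hAAM 3 (12.9% of all genes) and without that pair (11.1%), and 3 without control 2 (7.28%). Of the 23 calls 13 were kept in all 12 fits that leave out 1 liver, and the 10 lost in at least 1 were those of F3, F9, F12, Plaur, C4b, C8a, C8b, C9, Serping1 and C5ar1.

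**Figure D1:**
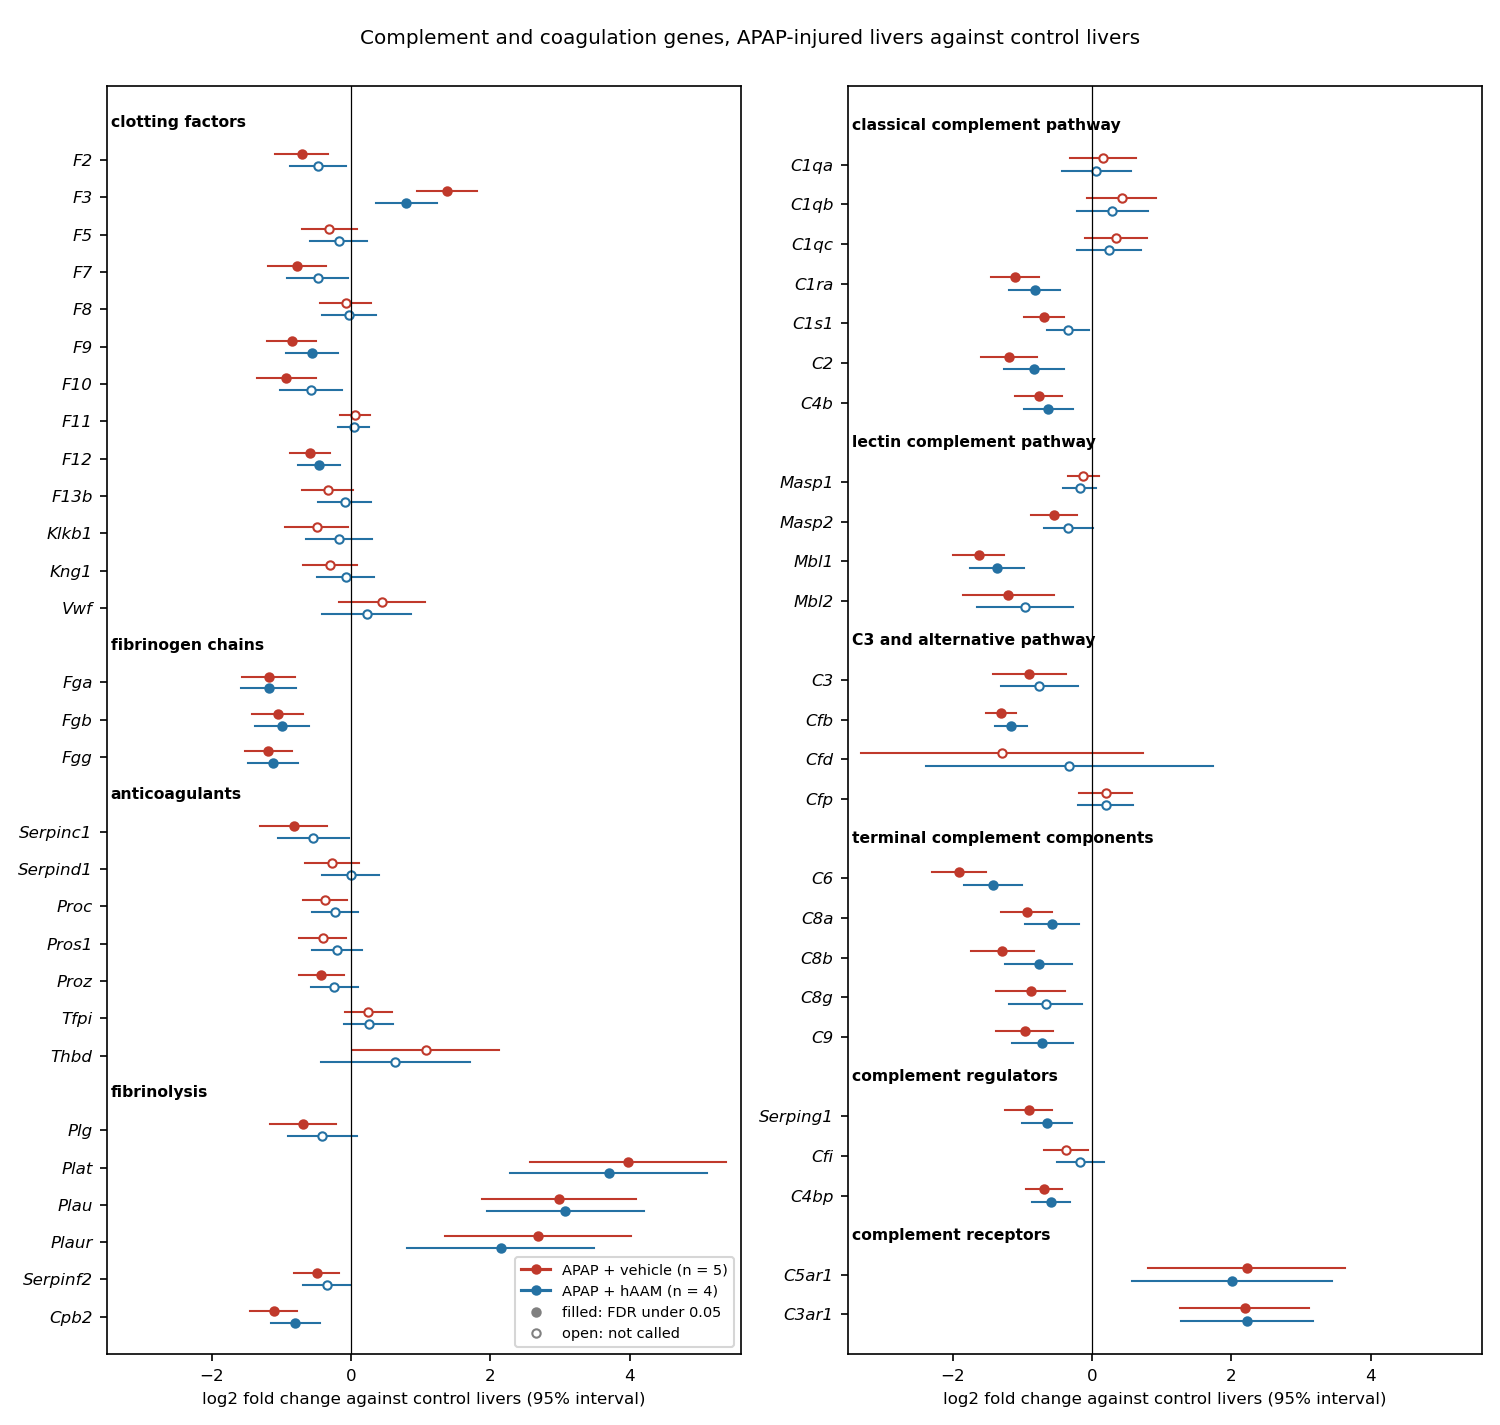
Log2 fold change against control (horizontal axis) of the 54 genes, grouped by role, in APAP-vehicle and APAP-hAAM livers, with 95% intervals from edgeR and filled points for an adjusted p under 0.05. The 29 genes that fell with vehicle reach down to -1.90 (C6), and the 6 that rose reach up to 3.98 (Plat).

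By usual source, listed from general knowledge of the liver, 22 of 29 members made by the liver parenchyma fell with vehicle and 12 of 29 with hAAM, where 14.8% and 9.96% of all genes fell, and 0 rose in either. The 12 became 21 without hAAM 3, 8 without hAAM 1, and 7 without hAAM 2, without hAAM 4, without any 1 control liver or without the nearly identical pair. With libraries scaled by size alone 17 fell with vehicle and 6 with hAAM, where 4.92% and 3.46% of all genes fell, and 1 rose in each, where 38.2% and 29.0% of all genes rose. Of 7 myeloid members 3 rose in both comparisons (Plaur, C5ar1 and C3ar1) and 0 fell, where 15.0% of all genes rose with vehicle and 10.7% with hAAM. Of 3 endothelial members 0 passed the test. The remaining 15 members were assigned to no single source, and of these 3 rose and 7 fell with vehicle, and 3 rose and 5 fell with hAAM. The median log2 difference of the 29 parenchymal genes from the control mean was -0.05, -0.01 and 0.03 in the control livers. It was -0.71, -0.58, -0.50, -1.03 and -0.91 in vehicle 1 to 5, and -0.69, -0.79, -0.08 and -0.51 in hAAM 1 to 4. Every vehicle liver thus lay below the controls, and hAAM 3 lay close to them.

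**Figure D2:**
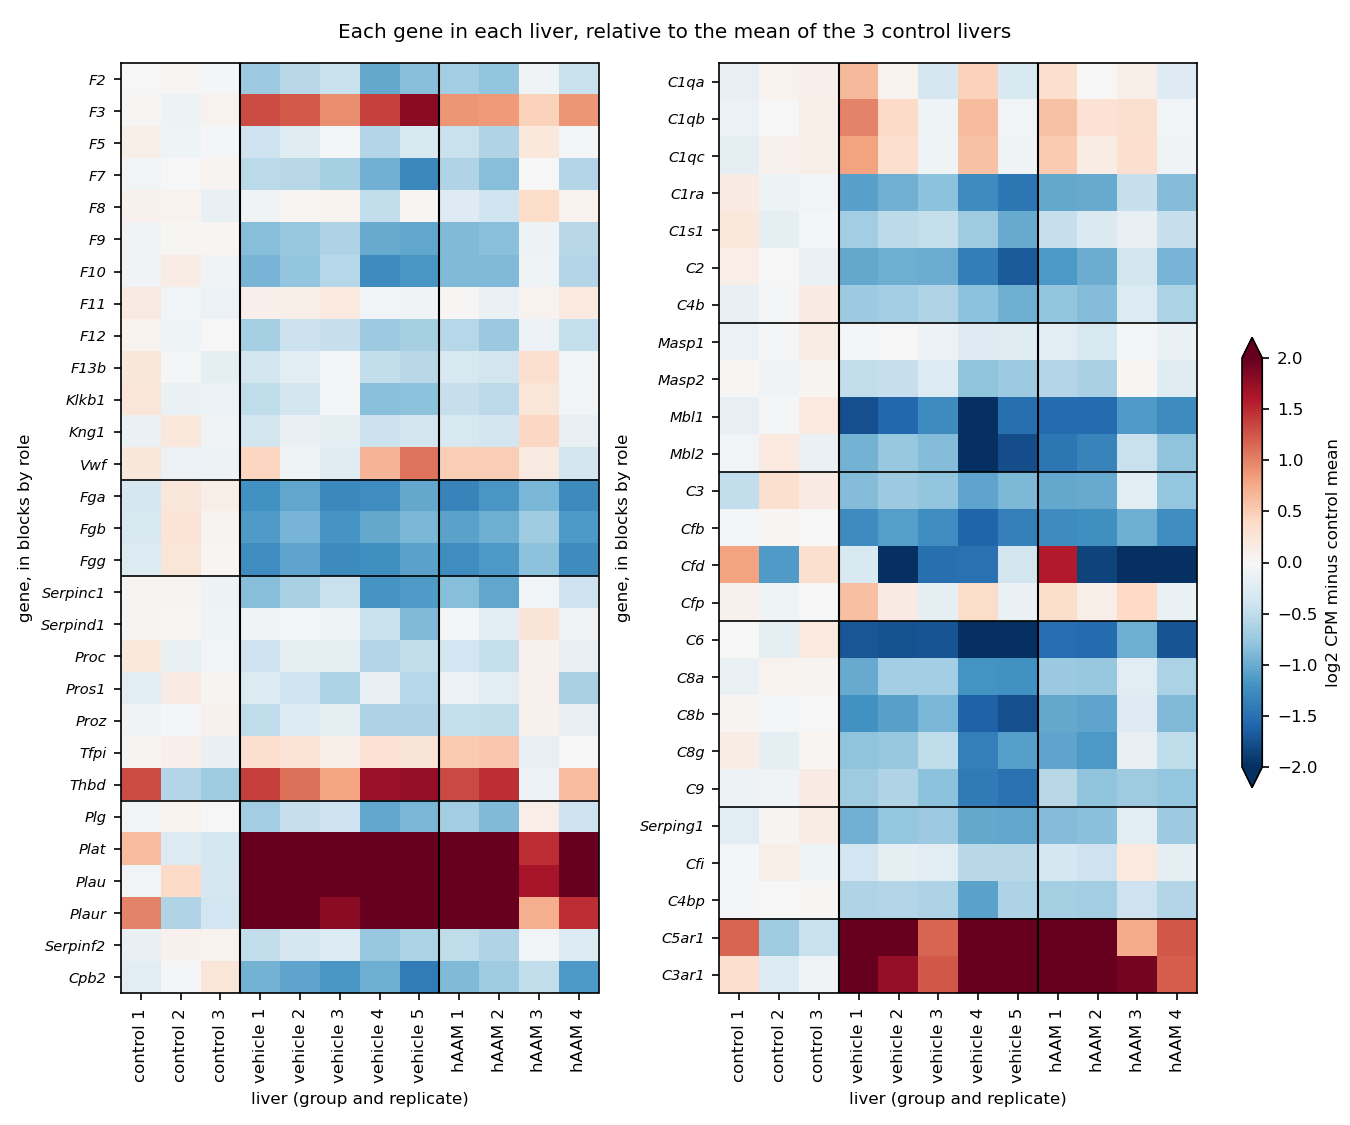
Heat map of the log2 CPM of each gene in each of the 12 livers minus its control mean, with the colour limited to a difference of 2 in each direction. The column of hAAM 3 is nearer to the controls than the other APAP columns over most of the liver-made genes.

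Fibrinogen is built from pairs of an alpha, a beta and a gamma chain, encoded by Fga (chr3:83026076-83033627, plus strand), Fgb (chr3:83040141-83049863, minus strand) and Fgg (chr3:83007724-83015049, plus strand). All 3 fell in both APAP groups, where 14.8% of all genes fell with vehicle and 9.96% with hAAM. Fga stood at 10399, 15325 and 14263 CPM in control 1 to 3, at 5654, 6371, 5357, 5529 and 6497 CPM in vehicle 1 to 5 and at 5198, 5862, 6997 and 5419 CPM in hAAM 1 to 4. The lowest control liver was above every APAP liver. Fga fell by 1.18 on the log2 scale with vehicle (SE 0.17, edgeR adjusted p = 0.000798), to 44.1% of control, and by 1.18 with hAAM (SE 0.18, adjusted p = 0.00199).

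Fgb stood at 7569, 11335 and 9758 CPM in control, at 4296, 4951, 4177, 4625 and 5018 CPM in APAP-vehicle and at 4471, 4805, 5731 and 4258 CPM in APAP-hAAM livers. It fell by 1.05 on the log2 scale with vehicle (SE 0.17, edgeR adjusted p = 0.0012) and by 0.99 with hAAM (SE 0.18, adjusted p = 0.00393), and here too the groups did not overlap with control. Fgg stood at 5492, 7830 and 6795 CPM in control, at 2814, 3182, 2747, 2836 and 3162 CPM in APAP-vehicle and at 2807, 2987, 3749 and 2787 CPM in APAP-hAAM livers. It fell by 1.19 (SE 0.16, edgeR adjusted p = 0.000401) and by 1.12 (SE 0.16, adjusted p = 0.00147) on the log2 scale. For all 3 chains control 1 was the lowest control liver and hAAM 3 the highest APAP liver.

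Fga and Fgg moved by like amounts and Fgb fell slightly less. The ratio of Fga to Fgg counts was 1.98 ± 0.105 (SD, n = 3) in control, 1.99 ± 0.0443 (n = 5) in APAP-vehicle and 1.91 ± 0.0553 (n = 4) in APAP-hAAM livers, and these ranges overlapped. The ratio of Fgb to Fgg counts was 1.42 ± 0.0372 in control, 1.56 ± 0.0456 in APAP-vehicle and 1.56 ± 0.0424 in APAP-hAAM livers, with every APAP liver above every control liver. The ratio of Fga to Fgb counts was 1.396 ± 0.0580 in control, 1.275 ± 0.0464 in APAP-vehicle and 1.219 ± 0.0450 in APAP-hAAM livers, with every APAP liver below every control liver. Per kilobase of exon, Fga, C3, Fgg and Fgb were the most abundant of the 54 in control livers, at 4428, 4287, 3204 and 2508 CPM per kilobase. Plg came next at 707.

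**Figure D3:**
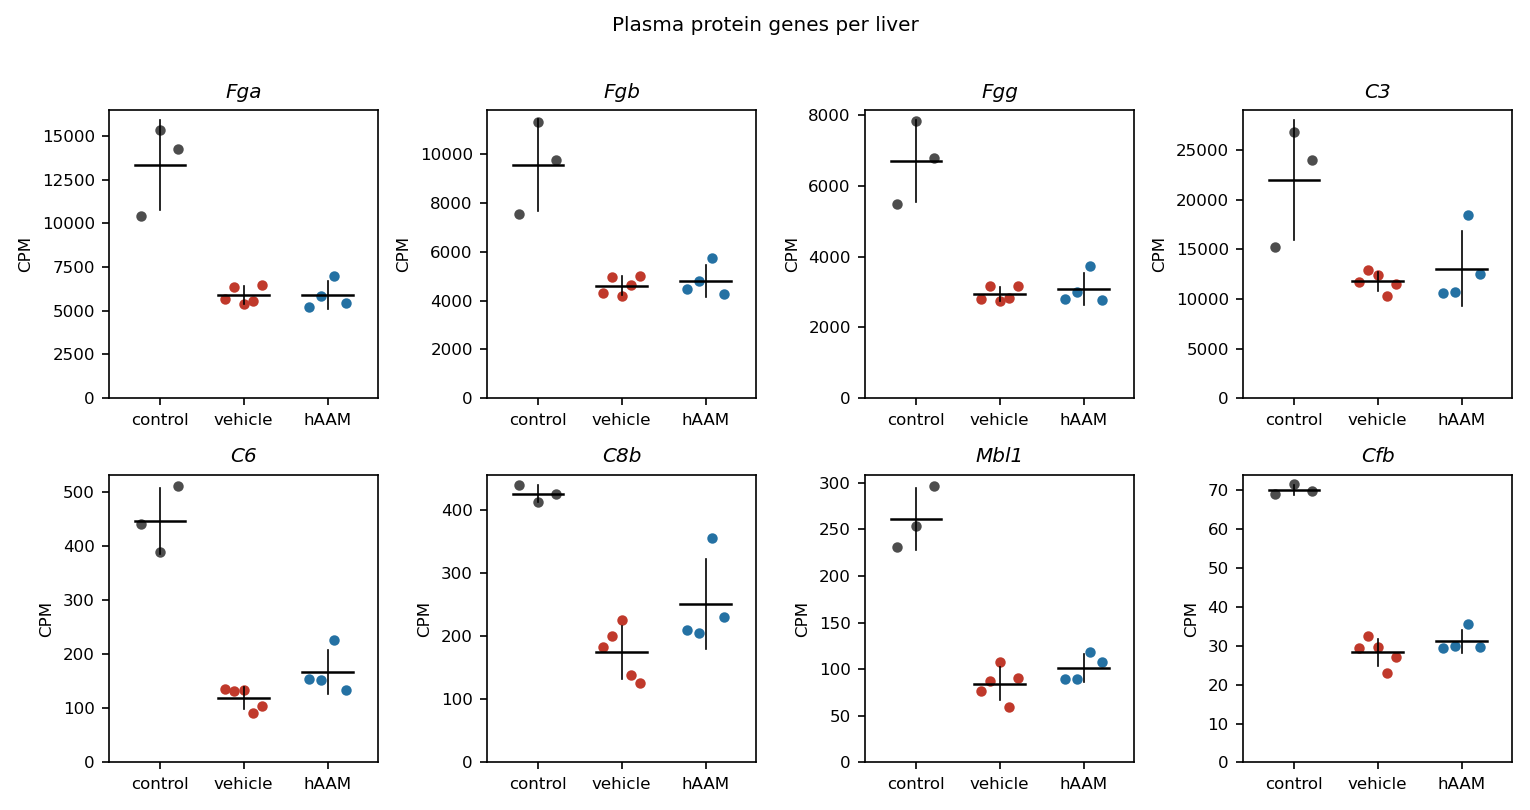
CPM in each liver (points) with the group mean (line) and SD (vertical bar) for 8 genes that fell with vehicle: Fga, Fgb, Fgg, C3, C6, C8b, Mbl1 and Cfb, in control (n = 3), APAP-vehicle (n = 5) and APAP-hAAM (n = 4) livers. The vehicle livers lie below every control liver in each panel, as for C6 at 91.6 to 135.6 against 389.8 to 512.0 CPM.

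Fibrinogen and C3 belong to the proteins whose synthesis in the liver is set by the acute-phase response. Of 12 acute-phase genes, a list made after the values of Saa1, Hp and Lcn2 had been seen, 8 fell and 0 rose with vehicle, where 14.8% of all genes fell and 15.0% rose, and 9 fell and 0 rose with hAAM (9.96% and 10.7%). Their summed level was 29381, 55709 and 62756 CPM in control 1 to 3, 17024 to 23561 CPM in APAP-vehicle and 17080 to 25824 CPM in APAP-hAAM livers, so control 1 was the lowest control here as it was for fibrinogen and C3. Saa1, serum amyloid A, stood at 2017, 5359 and 7674 CPM in control and at 38.0 to 329.7 CPM in APAP-vehicle livers. The part of this state of the control livers in the falls of fibrinogen and C3 was not tested.

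Among the 13 clotting factors, the serine proteases and cofactors upstream of fibrin, 5 fell with vehicle and 1 rose, where 14.8% of all genes fell and 15.0% rose. F2 (prothrombin), F7, F9, F10 and F12 fell by 0.71, 0.78, 0.85, 0.93 and 0.58 on the log2 scale, with edgeR adjusted p of 0.0102, 0.0104, 0.00288, 0.00478 and 0.00683. With hAAM only F9 (-0.56, adjusted p = 0.037) and F12 (-0.46, adjusted p = 0.0364) of these 5 passed the test, and both of these calls were lost when any control liver was left out, and also without the nearly identical pair (0.0663 and 0.0792). F2 had -0.47 (adjusted p = 0.086), F7 had -0.48 (0.112) and F10 had -0.57 (0.0677). Without hAAM 3 these 3 passed as well, at -0.64 (0.0147), -0.68 (0.0167) and -0.78 (0.00937), and by DESeq2 F2 (0.0461) and F10 (0.0405) passed with every liver in. In prothrombin the controls were narrow, at 1672, 1703 and 1634 CPM, the vehicle livers stood at 1010, 1134, 1221, 819.0 and 928.1 CPM, and the hAAM livers at 1028, 963.2, 1598 and 1220 CPM. hAAM 3 was close to the lowest control and the other 8 APAP livers were well below it.

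Apart from F3, the other clotting factors did not pass the test with vehicle. F5, the cofactor of factor Xa, had a log2 fold change of -0.31 with vehicle (edgeR adjusted p = 0.214), F13b, the carrier subunit of factor XIII, -0.33 (0.156), Klkb1, prekallikrein, -0.49 (0.0883), and Kng1, kininogen, -0.30 (0.217). Without the nearly identical pair Klkb1 passed, at -0.62 (0.04). With libraries scaled by size alone F5, F13b and Kng1 turned to 0.03, 0.01 and 0.04. F11, which lies next to Klkb1 on chromosome 8, had 0.06 (SE 0.10), with a 95% interval from -0.16 to 0.27, but with libraries scaled by size alone it had 0.40 (0.00527) with vehicle and 0.33 (0.0206) with hAAM and passed in both. F8 and Vwf, both made by endothelium, had -0.07 (adjusted p = 0.769) and 0.45 (0.255). F7 (chr8:13026034-13035809), F10 (chr8:13037308-13056676) and Proz (chr8:13060914-13076026) are neighbours on the plus strand of chromosome 8, and all 3 fell with vehicle.

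F3 (chr3:121723537-121735048, plus strand) encodes tissue factor, the membrane protein that starts clotting, and was the only clotting factor of the 13 that rose. It stood at 1.24, 1.13 and 1.28 CPM in control 1 to 3, at 3.05, 2.91, 2.34, 3.19 and 4.32 CPM in vehicle 1 to 5 and at 2.27, 2.22, 1.68 and 2.28 CPM in hAAM 1 to 4. These rest on 65 to 72 counts per control liver and 87 to 292 per APAP liver. Every APAP liver was above every control liver, and every hAAM liver was below every vehicle liver. F3 rose 2.6-fold with vehicle (log2 1.38, SE 0.20, edgeR adjusted p = 0.000679) and 1.74-fold with hAAM (log2 0.80, SE 0.20, adjusted p = 0.0173). The hAAM call was lost without control 2 (adjusted p = 0.0567).

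Of 7 anticoagulants 2 fell with vehicle and 0 passed the test with hAAM when every liver was kept, where 14.8% and 9.96% of all genes fell. Serpinc1, antithrombin, had -0.82 (edgeR adjusted p = 0.0159) with vehicle and -0.54 (0.123) with hAAM, or -0.75 (0.0267) without hAAM 3. The vehicle call was lost without control 1. Its control livers stood at 1440 to 1621 CPM, the vehicle livers at 684.8 to 1139 CPM and the hAAM livers at 759.5 to 1501 CPM. Proz, protein Z, had -0.43 (0.0473) with vehicle, a call that was kept in only 4 of the 12 fits that leave out 1 liver. Serpind1 (heparin cofactor II), Proc (protein C), Pros1 (protein S) and Tfpi (tissue factor pathway inhibitor) had -0.27, -0.37, -0.41 and 0.25, with adjusted p from 0.0675 to 0.276; by DESeq2 Proc (0.0499) and Pros1 (0.0469) passed, as they did without hAAM 3 (0.041 and 0.0492).

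Thbd (chr2:148404466-148408188, minus strand), the endothelial thrombin receptor that turns on protein C, was decided by 1 control liver. It stood at 18.7, 5.03 and 4.62 CPM in control 1 to 3, at 19.8, 16.4, 13.1, 25.1 and 25.6 CPM in APAP-vehicle and at 19.1, 21.2, 6.97 and 11.6 CPM in APAP-hAAM livers. Control 1 was within the range of the vehicle livers. The log2 fold change with vehicle was 1.08 (edgeR adjusted p = 0.109), and without control 1 it was 2.05 (0.00818). With hAAM it was 0.64 (0.384), and without control 1 it was 1.61 (0.031).

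With vehicle the fibrinolysis group split by usual source. Plasminogen and its plasma inhibitors are made by hepatocytes, while the activators Plat (tissue-type) and Plau (urokinase-type) are made by many cell types and the urokinase receptor Plaur is carried mainly by myeloid cells. All 3 liver-made members fell with vehicle, where 14.8% of all genes fell with vehicle and 9.96% with hAAM. With vehicle Plg fell by 0.68 (edgeR adjusted p = 0.0329), Serpinf2, the plasmin inhibitor alpha-2-antiplasmin, by 0.49 (0.0267), and Cpb2, the carboxypeptidase that protects fibrin from plasmin, by 1.11 (0.000563) on the log2 scale. Cpb2 was the only one of them that fell with hAAM (-0.80, adjusted p = 0.0068), with Plg at -0.41 (0.223) and Serpinf2 at -0.35 (0.134), but without hAAM 3 both passed too, at -0.65 (0.0286) and -0.46 (0.0448). The vehicle call of Plg was lost without any control liver or without vehicle 1, 4 or 5, and that of Serpinf2 without control 2 or 3 or vehicle 1, 4 or 5.

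All 3 of the activators and the receptor rose in both APAP groups, where 15.0% of all genes rose with vehicle and 10.7% with hAAM. Plat (chr8:22757727-22782844, plus strand) stood at 1.2, 0.629 and 0.593 CPM in control, at 13.3, 11.9, 7.49, 15.3 and 15.4 CPM in APAP-vehicle and at 21.3, 11.1, 2.19 and 7.32 CPM in APAP-hAAM livers. It rose 15.7-fold with vehicle (log2 3.98, SE 0.65, edgeR adjusted p = 0.00132) and 13-fold with hAAM (log2 3.70, SE 0.65, adjusted p = 0.00357), with no overlap between control and APAP livers. Plau (chr14:20836660-20843385, plus strand) stood at 1.16, 1.59 and 0.948 CPM in control, at 12.1, 8.08, 5.59, 13.1 and 10.3 CPM in APAP-vehicle and at 14.8, 17.3, 3.85 and 6.05 CPM in APAP-hAAM livers. It rose 7.93-fold (log2 2.99, SE 0.51, edgeR adjusted p = 0.00164) and 8.46-fold (log2 3.08, SE 0.52, adjusted p = 0.00298). The lowest APAP liver for both genes was hAAM 3, still above every control.

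Plaur (chr7:24462484-24475968, plus strand) stood at 2.21, 0.708 and 0.830 CPM in control, at 6.45, 6.41, 3.91, 10.5 and 12.6 CPM in APAP-vehicle and at 7.98, 9.15, 1.84 and 3.12 CPM in APAP-hAAM livers. Here hAAM 3 fell below control 1, so that group overlapped with control. The rise was 2.68 on the log2 scale with vehicle (SE 0.62, edgeR adjusted p = 0.00737) and 2.15 with hAAM (SE 0.62, adjusted p = 0.0296), and the hAAM call was lost without control 2 or 3 or hAAM 1 or 2. Per kilobase of exon Plat, Plaur, F3 and Plau were the lowest of the 54 in control livers, at 0.129, 0.477, 0.482 and 0.521 CPM per kilobase. With vehicle they stood at 2.03, 3.05, 1.251 and 4.16. The ratio of Plat to Plg counts was 0.000311 ± 0.000144 (SD, n = 3) in control, 0.00825 ± 0.00336 (n = 5) in APAP-vehicle and 0.00636 ± 0.00536 (n = 4) in APAP-hAAM livers, with hAAM 3 at 0.000763.

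**Figure D4:**
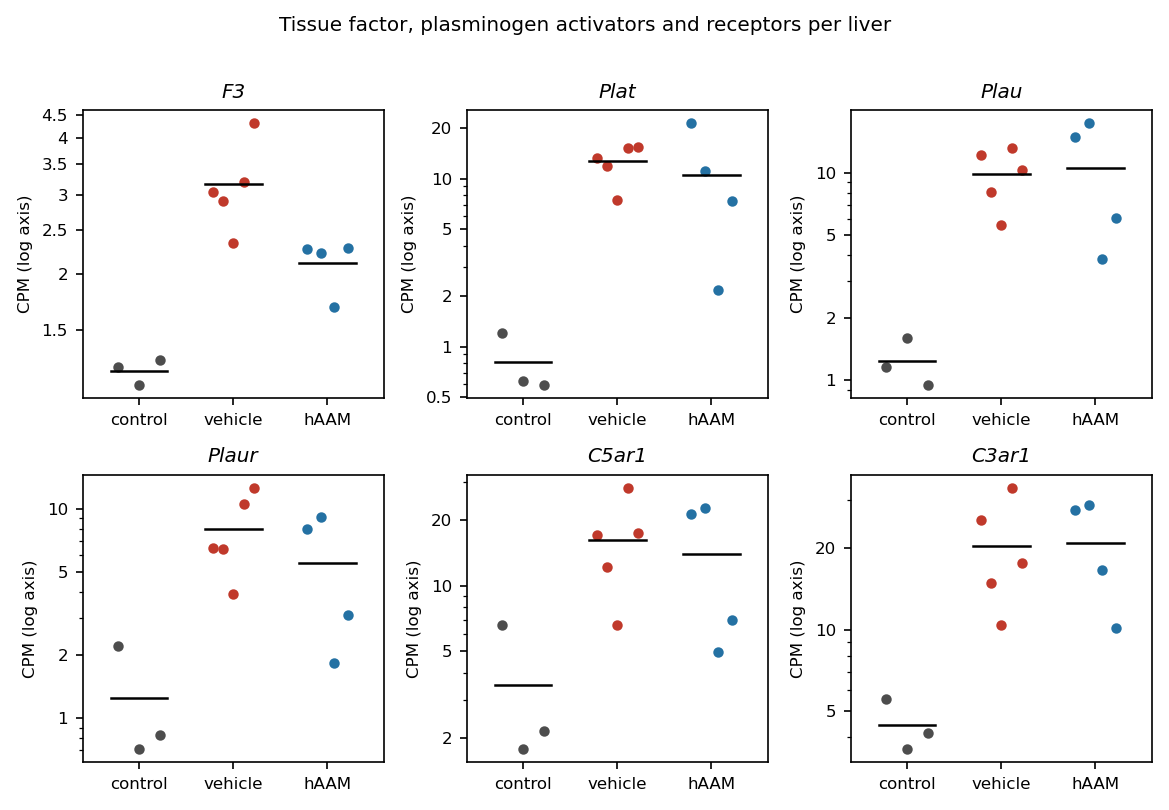
CPM on a log axis in each liver (points) with the group mean (line) for the 6 genes that rose with vehicle: F3, Plat, Plau, Plaur, C5ar1 and C3ar1. In the hAAM group hAAM 3 is the lowest point for F3, Plat, Plau, Plaur and C5ar1, as for Plat at 2.19 CPM.

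In the classical pathway C1q binds antibody, C1r and C1s cut, and C4 and C2 form the enzyme that cuts C3. C1ra, C1s1, C2 and C4b, 4 of the 7 members, all fell with vehicle, where 14.8% of all genes fell. The falls were 1.10, 0.68, 1.19 and 0.76 on the log2 scale (edgeR adjusted p = 0.000699, 0.00313, 0.00107 and 0.00405). With hAAM C1ra (-0.82, adjusted p = 0.00671), C2 (-0.83, 0.0131) and C4b (-0.63, 0.02) fell, where 9.96% of all genes fell. The hAAM call of C4b was lost without control 3, hAAM 1 or hAAM 2 and with libraries scaled by size alone (0.0525). The C1q subunits, which macrophages make, had 0.16 (C1qa), 0.43 (C1qb) and 0.35 (C1qc) with vehicle, with adjusted p of 0.61, 0.173 and 0.218, and their vehicle livers overlapped with control. C1ra and C1s1 may share reads with the near-identical copies C1rb and C1s2, and C4b with C4a, so their counts could be split between copies. The copies C1rb, C1s2 and C4a had log2 fold changes of -1.14, -0.68 and -0.89 with vehicle, each called lower.

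C2 (chr17:34862604-34898265, minus strand) stood at 44.4, 40.3 and 36.9 CPM in control, at 19.9, 20.4, 20.4, 15.5 and 12.6 CPM in APAP-vehicle and at 18.2, 20.3, 31.4 and 21.2 CPM in APAP-hAAM livers, and every APAP liver was below every control liver. C1s1 (chr6:124530345-124542359, minus strand) stood at 433.3, 325.8 and 367.9 CPM in control, at 229.4, 258.5, 267.8, 228.1 and 184.6 CPM in APAP-vehicle and at 271.7, 305.9, 331.4 and 271.6 CPM in APAP-hAAM livers. Every hAAM liver was above every vehicle liver, and only hAAM 3 reached the range of control. C1s1 had -0.35 with hAAM against control (edgeR adjusted p = 0.0977). C1ra lies beside it on chromosome 6, and the ratio of C1ra to C1s1 counts was 1.12 ± 0.0600 (SD, n = 3) in control, 0.830 ± 0.0435 (n = 5) in APAP-vehicle and 0.797 ± 0.104 (n = 4) in APAP-hAAM livers, with every APAP liver below every control liver.

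In the lectin pathway mannose-binding lectins recognise sugars and activate the MASP proteases. Mbl1, Mbl2 and Masp2 fell with vehicle, where 14.8% of all genes fell. The falls were 1.63, 1.2 and 0.54 on the log2 scale (edgeR adjusted p = 9.84e-05, 0.011 and 0.0204), and Masp1 had -0.12 (SE 0.10, adjusted p = 0.39). The call of Masp2 was lost without control 1 or control 3 and with libraries scaled by size alone (-0.20, 0.164). Mbl1 (chr14:41151458-41159601, plus strand) stood at 231.2, 254.0 and 296.9 CPM in control, at 76.4, 87.3, 108.1, 59.7 and 90.8 CPM in APAP-vehicle and at 89.2, 89.4, 118.7 and 107.9 CPM in APAP-hAAM livers. The highest APAP liver was about midway between the lowest control and 0, so the groups were well apart. Mbl1 was at 32.4% of control with vehicle and 38.9% with hAAM (log2 -1.36, SE 0.18, edgeR adjusted p = 0.000749). Mbl2 had -0.96 with hAAM (adjusted p = 0.0509) and Masp2 had -0.34 (0.16), and without hAAM 3 both passed, at -1.17 (0.0227) and -0.48 (0.0314).

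C3, on which all 3 complement pathways meet, stood at 15251, 26881 and 24013 CPM in control, at 11723, 12929, 12418, 10320 and 11528 CPM in APAP-vehicle and at 10569, 10672, 18517 and 12552 CPM in APAP-hAAM livers. Control 1 was much lower than the other 2 controls, and hAAM 3 was above it. C3 fell by 0.90 on the log2 scale with vehicle (SE 0.24, edgeR adjusted p = 0.0152), a call lost without control 2 or 3, and had -0.75 with hAAM (SE 0.25, adjusted p = 0.0547). Without hAAM 3 the second value was -0.97 and passed (adjusted p = 0.0125), and by DESeq2 it passed with every liver in (0.00617). Cfb (chr17:34856374-34862518, minus strand), the protease of the alternative pathway, moved with less spread: 69.1, 71.6 and 69.7 CPM in control, 29.3, 32.5, 29.7, 23.1 and 27.2 CPM in APAP-vehicle and 29.5, 30.0, 35.6 and 29.8 CPM in APAP-hAAM livers. It was at 40.4% of control with vehicle (log2 -1.31, SE 0.10, edgeR adjusted p = 2.06e-05) and at 44.5% with hAAM (log2 -1.17, SE 0.11, adjusted p = 0.000106). Cfb and its neighbour C2 overlap a predicted gene on the same strand, so reads there could be lost or shared.

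Cfd, the adipose protease that activates factor B, was near the limit of detection, with 15 to 53 counts per control liver and 3 to 93 per APAP liver, and its log2 fold change of -1.30 had a 95% interval from -3.32 to 0.73. Without hAAM 1, the liver with 93 counts, its value with hAAM was -2.66 (edgeR adjusted p = 0.0357). Cfp, properdin, a myeloid stabiliser of the C3-cutting enzyme, had 0.20 with vehicle (edgeR adjusted p = 0.422) and 0.20 with hAAM (0.471).

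The 5 terminal components, which assemble the membrane pore, all fell with vehicle, and 4 of 5 fell with hAAM, where 14.8% and 9.96% of all genes fell. C6 (chr15:4727175-4814967, plus strand) had the largest fall of the 54 in both comparisons. It stood at 440.9, 389.8 and 512.0 CPM in control, at 135.6, 132.5, 134.1, 91.6 and 104.2 CPM in APAP-vehicle and at 154.6, 153.1, 227.2 and 134.8 CPM in APAP-hAAM livers. The highest APAP liver, hAAM 3, was well below the lowest control. C6 was at 26.7% of control with vehicle (log2 -1.90, SE 0.18, edgeR adjusted p = 5.86e-05) and at 37.4% with hAAM (log2 -1.42, SE 0.19, adjusted p = 0.000923). The ratio of C6 to C8a counts was 0.321 ± 0.0479 (SD, n = 3) in control, 0.165 ± 0.0190 (n = 5) in APAP-vehicle and 0.177 ± 0.0184 (n = 4) in APAP-hAAM livers, and here hAAM 3, at 0.188, was not apart from the other APAP livers.

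C8 has an alpha, a beta and a gamma chain. C8b (chr4:104766317-104804548, plus strand) stood at 440.3, 412.9 and 425.2 CPM in control, at 183.4, 199.96, 225.3, 138.6 and 125.8 CPM in APAP-vehicle and at 210.6, 205.0, 355.9 and 230.9 CPM in APAP-hAAM livers, with hAAM 3 far above the other APAP livers and below control. Its neighbour C8a (chr4:104815679-104876398, minus strand) stood at 1278, 1465 and 1451 CPM in control, at 696.8, 869.7, 871.0, 611.0 and 601.8 CPM in APAP-vehicle and at 831.4, 823.3, 1209 and 900.1 CPM in APAP-hAAM livers. C8b fell by 1.29 and C8a by 0.94 on the log2 scale with vehicle (edgeR adjusted p = 0.00129 and 0.00213), and by 0.77 and 0.57 with hAAM (0.0298 and 0.0396). Without the nearly identical pair the hAAM values of C8b and C8a were -0.72 (adjusted p = 0.0549) and -0.55 (0.0763). C8g and C9 had -0.88 (0.013) and -0.97 (0.00338) with vehicle, and -0.67 (0.0683) and -0.71 (0.0273) with hAAM. Of the 12 fits that leave out 1 liver, the hAAM call was kept in 5 for C8a, 6 for C8b and 7 for C9, and C8g passed without hAAM 3 (-0.88, 0.0154). Without the nearly identical pair C9 had -0.69 (0.0635).

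Of 3 plasma regulators, Serping1, the C1 inhibitor that also blocks kallikrein and factor XIIa, and C4bp, which binds C4b, fell in both APAP groups. Over all genes 14.8% fell with vehicle and 9.96% with hAAM. Serping1 (chr2:84765387-84775444, minus strand) stood at 910.0, 1101 and 1176 CPM in control, at 541.4, 616.1, 636.7, 518.7 and 513.4 CPM in APAP-vehicle and at 577.8, 593.3, 910.1 and 637.6 CPM in APAP-hAAM livers, so that hAAM 3 and control 1 were level. Its log2 fold change was -0.91 with vehicle (edgeR adjusted p = 0.00177) and -0.64 with hAAM (0.0191), and the hAAM call was lost without control 2 or 3 or hAAM 1 or 2. C4bp fell by 0.69 (0.00194) and 0.59 (0.00891). Cfi, factor I, which cuts C3b and C4b, stood at 651.9, 726.1 and 633.8 CPM in control, at 512.9, 582.5, 579.3, 453.6 and 456.1 CPM in APAP-vehicle and at 531.1, 501.8, 764.0 and 591.8 CPM in APAP-hAAM livers. All vehicle livers were below control, but its -0.38 did not pass the edgeR test (adjusted p = 0.0707) while it did pass by DESeq2 (0.0408) and without hAAM 3 (0.0284). With hAAM Cfi had -0.17 (0.471), a value that turned to 0.12 when libraries were scaled by size alone.

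The receptors for C5a and C3a, C5ar1 and C3ar1, are carried mainly by myeloid cells. Both rose in each APAP group, where 15.0% of all genes rose with vehicle and 10.7% with hAAM. C5ar1 (chr7:16246743-16259540, minus strand) stood at 6.61, 1.78 and 2.15 CPM in control, at 17.1, 12.2, 6.62, 28.2 and 17.6 CPM in APAP-vehicle and at 21.5, 22.9, 4.96 and 7.0 CPM in APAP-hAAM livers. Control 1 was level with the lowest vehicle liver and above hAAM 3. C5ar1 rose by 2.22 on the log2 scale with vehicle (SE 0.65, edgeR adjusted p = 0.0233) and by 2.01 with hAAM (SE 0.66, adjusted p = 0.0496); the first was lost without control 2 (0.085) or control 3 (0.09), and the second under several other settings. C3ar1 (chr6:122847138-122856161, minus strand) stood at 5.55, 3.62 and 4.15 CPM in control, at 25.4, 14.8, 10.4, 33.3 and 17.6 CPM in APAP-vehicle and at 27.6, 28.9, 16.6 and 10.1 CPM in APAP-hAAM livers, with no overlap. It rose by 2.20 (SE 0.43, edgeR adjusted p = 0.00317) and 2.23 (SE 0.44, adjusted p = 0.00568) on the log2 scale.

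Markers of monocytes and macrophages were read beside the receptors and Plaur. Of 8 such genes, Cd68, Ccr2, Lyz2, Itgam and Cx3cr1 rose in both APAP groups, and none of the 8 was at 0 in any liver. Their summed level was 146.8 to 155.8 CPM in control, 212.1 to 375.4 CPM in APAP-vehicle and 210.5 to 425.3 CPM in APAP-hAAM livers. By liver these 8 markers did not always follow the receptors and Plaur. Their median log2 difference from the control mean was 1.10 in hAAM 3 and 0.66 in hAAM 4, where C3ar1 had 1.92 and 1.21. C5ar1 had 0.75 and 1.24 and Plaur had 0.73 and 1.48, so both were ordered the other way. Of 6 resident Kupffer cell markers 1, Marco, rose in each comparison, of 6 neutrophil markers 0 passed the test, and of 7 sinusoidal endothelial markers 4 rose with vehicle and 3 with hAAM. Of 4 platelet markers 3 rose with vehicle and 1 with hAAM. Over all genes 15.0% rose with vehicle and 10.7% with hAAM, close to the share of the Kupffer cell markers. The part of these cells in the rises of F3, Plat, Plau, Plaur, C5ar1 and C3ar1 was not tested. Of the 7 hepatocyte markers only Hnf4a passed the test, with a log2 fold change of -0.38 with vehicle (edgeR adjusted p = 0.0276), and 0 passed with hAAM. That 1 of 7 fell with vehicle is close to the 14.8% of all genes that did. In either direction 29.8% of all genes passed with vehicle and 20.7% with hAAM. Alb, albumin, had 0.15 (adjusted p = 0.729), but its control livers ranged from 35702 to 61818 CPM.

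**Figure D5:**
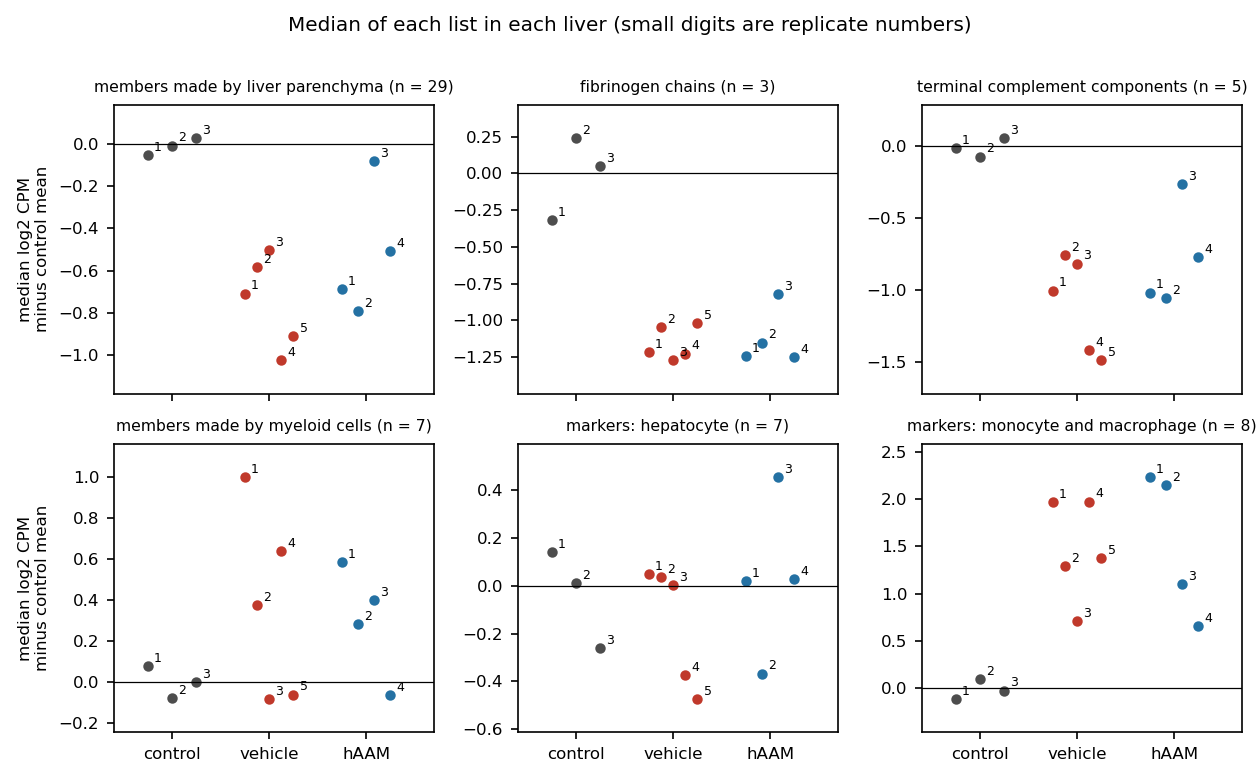
Median log2 difference from the control mean, per liver, of 6 gene lists: members made by liver parenchyma (29 genes), fibrinogen chains (3), terminal components (5), members made by myeloid cells (7), hepatocyte markers (7) and monocyte and macrophage markers (8). The parenchymal members lie at -0.50 to -1.03 in the vehicle livers and at -0.08 in hAAM 3, while the macrophage markers lie at 0.71 to 1.98 and at 1.10.

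Together the 54 genes took 6.40% ± 1.09 (SD, n = 3) of all counts in control livers, 4.33% ± 0.167 (n = 5) in APAP-vehicle and 4.58% ± 0.562 (n = 4) in APAP-hAAM livers. By liver this was 5.23, 7.37 and 6.61% in control, 4.11 to 4.58% in APAP-vehicle and 4.15, 4.44, 5.4 and 4.33% in hAAM 1 to 4. By total counts hAAM 3 was above control 1 and the other APAP livers were below every control, while with the TMM-scaled library as denominator hAAM 3 was below control 1 too (5.80% against 6.19%). These shares follow the most abundant members, fibrinogen and C3.

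The direct comparison of APAP-hAAM with APAP-vehicle asks whether the injected cells went with a change in these genes. No member passed the edgeR test (0 of 54, where 0% of all genes passed, every member's adjusted p at 0.966 or above), and 0 passed by DESeq2, which called 1 gene of all tested (0.00443%). At an unadjusted p under 0.05 there were 6 members, where 5.02% of all genes stood: F3, Cpb2, C1s1, C6, C8a and C8b. F3 had a log2 difference of -0.58 (95% interval -0.95 to -0.21) and was lower in all 4 hAAM livers than in any vehicle liver, where 0.691% of all genes were so placed. The margin was set by the nearly identical pair, at 2.28 CPM in hAAM 4 and 2.34 CPM in vehicle 3, which rest on 122 and 121 counts, a gap within counting noise. C1s1 had 0.34 (0.07 to 0.60) and was higher in all 4, where 0.709% of all genes were so placed, and its margin was narrow too, at 271.6 CPM in hAAM 4 against 267.8 CPM in vehicle 3. For the terminal components the differences were 0.49 (0.12 to 0.85) in C6, 0.52 (0.10 to 0.94) in C8b and 0.37 (0.03 to 0.71) in C8a. These are edgeR's intervals for single genes, and after adjustment over all genes none of the 6 passed.

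For fibrinogen the interval of the difference was narrow: -0.36 to 0.35 for Fga, -0.28 to 0.40 for Fgb and -0.25 to 0.38 for Fgg on the log2 scale. For the activators it was wide, at -1.29 to 0.74 for Plat, -0.76 to 0.94 for Plau and -1.60 to 0.53 for Plaur, so that differences of that size in either direction were not detectable with these livers. Of 54 members 42 had a positive difference, where 50.9% of all genes did, with a median of 0.17 against 0.00 over all genes. Of the 29 parenchymal members 27 were positive, with a median of 0.24. Without hAAM 3 the positive ones were 36 of 54 (median 0.06) and 22 of 29 (median 0.06), and without the nearly identical pair they were 42 of 54 (median 0.20) and 27 of 29 (median 0.30). Without that liver the differences of F3, C6, C8b and C1s1 were -0.49, 0.30, 0.30 and 0.28. Without the nearly identical pair they were -0.71, 0.62, 0.66 and 0.42, with edgeR adjusted p of 0.524 to 0.634.

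In the levels liver by liver, hAAM 3 stood nearest to control. Of the 29 members that fell with vehicle, it was above every vehicle liver in 28, where this was so for 48.6% of all genes that fell with vehicle, and it reached the lowest control liver in 10, where 19.6% of those genes did. The other hAAM livers were above every vehicle liver in 4 (hAAM 1, against 19.1% of those genes), 3 (hAAM 2, 20.3%) and 11 (hAAM 4, 34.7%). They reached the lowest control in 0 of the 29, where 6.05%, 7.28% and 8.27% of those genes did in hAAM 1, 2 and 4. Of the 6 members that rose, hAAM 3 was below every vehicle liver in 5, where this was so for 50.6% of all genes that rose with vehicle. hAAM 4 was so placed in 4 of the 6 (39.7% of those genes), and hAAM 1 and hAAM 2 in 1 each (12.8% and 16.6%). The place of hAAM 4 can rest on small gaps to vehicle 3, the library nearly identical to it. These were 7.32 against 7.49 CPM in Plat and 10.1 against 10.4 CPM in C3ar1, and wider in Plaur, at 3.12 against 3.91 CPM. In hAAM 3 the hepatocyte markers summed to 108110 CPM, the highest of the 12 livers, and the macrophage markers to 283.7 CPM, within the range of the other APAP livers. The labels give nothing that sets this liver apart.

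Other genes of both systems were read from lists made from general knowledge. Of 29 other coagulation and fibrinolysis genes 11 rose and 7 fell with vehicle, and 6 rose and 6 fell with hAAM. Over all genes 15.0% rose and 14.8% fell with vehicle, and 10.7% and 9.96% with hAAM. The largest rise with vehicle was in Serpinb2, an inhibitor of plasminogen activators, at log2 4.15 (edgeR adjusted p = 0.0414), but it rests on 0 to 2 counts per control liver and 0 to 39 per vehicle liver, so its size is not firm. The largest fall was in Serpina10, the protein Z-dependent inhibitor of factor Xa, which stood at 564.3, 792.9 and 857.1 CPM in control, at 154.0 to 220.2 CPM in APAP-vehicle and at 190.5 to 225.9 CPM in APAP-hAAM livers. It fell by 1.98 (SE 0.14, edgeR adjusted p = 1.67e-05) and 1.84 (adjusted p = 7.35e-05) on the log2 scale, more than any of the 54 listed genes did with hAAM. Chosen after their values were seen, F13a1, the catalytic subunit of factor XIII that macrophages and platelets carry, rose by 4.03 and 3.75, and Anxa2, a surface receptor for Plat and plasminogen, by 3.69 and 3.31. The vitamin K carboxylase Ggcx, which modifies prothrombin and factors VII, IX and X, fell by 0.33 with vehicle (adjusted p = 0.0218) and 0.31 with hAAM (0.0462).

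Of 30 other complement genes 4 rose and 10 fell with vehicle, and 4 rose and 8 fell with hAAM. The share that rose was close to the 15.0% (vehicle) and 10.7% (hAAM) of all genes that did, while 14.8% and 9.96% of all genes fell. The 4 that rose were Cd93, Itgam, Itgax and Itgb2, surface proteins of myeloid or endothelial cells, of which Itgam, a chain of complement receptor 3 and itself one of the 8 macrophage markers, had the largest rise (log2 2.4 with vehicle, edgeR adjusted p = 0.0225, and 2.27 with hAAM, 0.0414). Susd4, a complement regulator, had the largest fall: it stood at 22.5, 14.3 and 33.9 CPM in control, at 2.16 to 8.21 CPM in APAP-vehicle and at 5.89 to 13.8 CPM in APAP-hAAM livers, and fell by 2.23 (adjusted p = 0.00247) and 1.49 (0.0303) on the log2 scale. Hc, which encodes C5, had -0.92 with vehicle (0.00649) and -0.58 with hAAM (0.0803). The membrane regulators Cd55, Cd46 and Cd59a had 0.10, 0.11 and -0.12 with vehicle, with adjusted p of 0.458 to 0.643.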

How the data were processed

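The authors trimmed paired-end reads of ribosomal RNA-depleted, directional libraries with cutadapt 4.6, aligned them to GRCm38 with STAR 2.7.1a and deposited whole-number counts per gene; the counting tool's use of strand is not given in the sources used here, so overlapping genes may share or lose reads. All columns of the count table were matched to a sample (0 were not). From the deposited counts, genes were filtered by edgeR's filterByExpr by group, scaled by TMM and tested in 1 fit of all 12 livers with the quasi-likelihood test of edgeR 4.0.16 (R 4.3.3), two-sided, with Benjamini-Hochberg adjusted p under 0.05 over 22581 genes. Intervals are 95%. CPM are TMM-scaled, and the differences of single livers from the control mean are of log2 CPM with a prior count of 2. Log2 fold changes are those of edgeR's fit at its default prior count. The labels number the mice within groups, so p-values measure the spread between these livers.

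Depth was 47391650 to 74056505 counts per liver, and precision was limited by the number of livers (biological coefficient of variation 0.214), except for genes with low counts. Symbols and positions come from GENCODE for GRCm38, and promoters from RefSeq for GRCm38.p6. Genes given per liver were the fibrinogen chains, C1s1 and Cfi, the 2 largest rises and falls in each APAP group, the largest change of each role group, the largest rise and fall of each list of other genes, and the 5 smallest p between APAP groups; other members given per liver were chosen after their values were seen. Members, lists and this rule were chosen with earlier results of these data known. Alternatives were DESeq2 1.42.0, other scalings, other filters, fits of only the groups compared, a replicate block, and leaving out livers. Tests were tried on simulated counts.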

Additional observations from a re-analysis of the deposited data

Results flagged for a closer look

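In 5 of 108 groups of livers tested (54 genes in each APAP group), 1 liver lay far from the rest of its group, as judged by its gap to the nearest liver over the group's range; chance gives about 1 in 20. F3 in hAAM 3 was the lowest of its group, at 1.68 CPM against 2.22 to 2.28 in the other hAAM livers (gap over range 0.918). Cfb in hAAM 3 was the highest, at 35.6 against 29.5 to 30.0 CPM (0.903). In APAP-vehicle livers, C4bp in vehicle 4 was the lowest, at 419.8 against 569.7 to 585.9 CPM (0.916), F8 in vehicle 4 was the lowest, at 29.4 against 39.6 to 43.6 CPM (0.757), and Tfpi in vehicle 3 was the lowest, at 8.15 against 8.96 to 9.31 CPM (0.716). Groups of 3 were not tested, so control 1 was not judged this way.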

How the results depend on the processing

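Scaling by library size alone moved the median of all genes up by 0.35 (vehicle) and 0.30 (hAAM) on the log2 scale and called 43.2% and 32.5% of them, in place of 29.8% and 20.7%. With vehicle it gave 12 members higher in place of 6, with F11, Tfpi, Thbd, C1qb, C1qc and Cfp added, where 38.2% of all genes were higher, and 24 lower in place of 29 (4.92%). With hAAM it gave 7 higher in place of 6 (29.0%) and 10 lower in place of 17 (3.46%). It lost 5 of the 35 vehicle calls (F12, Proz, Plg, Serpinf2 and Masp2) and 7 of the 23 hAAM calls (F9, F12, C4b, C8a, C8b, C9 and C4bp), and turned the sign of 6 members with vehicle (F5, F8, F13b, Kng1, Serpind1 and Masp1) and of 12 with hAAM (F5, F8, F13b, Klkb1, Kng1, Serpind1, Proc, Pros1, Proz, Masp1, Cfd and Cfi, the last from -0.17 to 0.12), none of them called under either scaling. The members' median moved from -0.56 to -0.22 with vehicle and from -0.34 to -0.05 with hAAM, and the positive values from 14 to 20 and from 14 to 26. With the TMM-scaled library as denominator the share of counts was 7.58% in control and 4.04% in APAP-vehicle livers. Leaving out 1 liver at a time, the members called with vehicle were 24 to 32 lower (10.4 to 15.8% of all genes) and 5 to 7 higher (9.64 to 16.1%), and with hAAM 10 to 27 lower (5.66 to 11.3%) and 3 to 7 higher (4.82 to 12.9%), with 0 called between APAP groups; the causes were not tested. DESeq2 called 38 members with vehicle and 28 with hAAM, with all 35 and all 23 among them. The hAAM call of C5ar1 (edgeR adjusted p = 0.0496) was lost with RLE factors (0.0512), without the filter (0.051), with only the groups compared (0.088) and with a replicate block (0.0606). Replicate numbers did not pair the mice: over the 2000 most variable genes 5 of 10 same-numbered pairs had r over 0.1 (-0.56 to 0.46), and 2 of 12 livers correlated best with their own number. With the replicate block 22 members were lower with vehicle (9.13% of all genes) and 15 with hAAM (6.20%), 6 (9.70%) and 5 (6.91%) were higher, and 0 differed between APAP groups. Depth limits Cfd and Serpinb2.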
